A study of Rattus norvegicus with 4 samples.

Results

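Many cytokine receptors have no kinase activity of their own and signal through Janus kinases (JAK) bound to their tails. A JAK phosphorylates the receptor and the STAT transcription factors that dock there, and paired STAT proteins then enter the nucleus and switch on target genes. Among those targets are the suppressors of cytokine signalling (SOCS), which bind the kinases or receptors and shut the signal off. In macrophages this circuit carries the response to interferons, to many interleukins and to some colony stimulating factors.

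The transcripts described here are those of 9 genes of this circuit, namely the kinases Jak1 and Jak2, the factors Stat2, Stat3, Stat5a, Stat5b and Stat6, and the feedback genes Socs1 and Socs3. They were chosen by name, and a probe counted as theirs if its accession, with the version removed, was listed for that symbol in RefSeq. This gave 11 probes of 45598 on the array, for 9 of 16581 genes that could be named. RNA came from NR8383, an established macrophage line taken from normal rat lung by lavage and grown as a mix of adherent and floating cells. All arrays came from 1 group of 4 replicates, biological ones per the design text, of cells after 20 passages that had been with carbon black (Printex 90) at 0.9 cm2/cm2 for 4 h. The study asked how the particles change gene expression. Cells incubated without them were not analysed here, so the values are levels in exposed cells and carry no treatment effect. How far apart the replicates were grown is not given in the sources used here, and p-values therefore measure only the spread between these samples.

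The processed intensity was read from 4 Agilent 1-colour arrays that lay on 1 slide and shared 1 scan. A probe is called detected below where the scanner software had marked it well above background, which it did for 37.5% to 40.9% of the probes of an array, and no spot was saturated. Background was higher on replicate 1, where the 99th percentile of the negative controls was 27.1 intensity units against 4.95 to 7.40 on the others. That array was also the brightest, with a 75th percentile over probes of 109 units against 63.7 to 93.7. All 10 macrophage markers examined, among them Cd68, Ptprc and Spi1, were detected on every array, against 47.9% of all named genes. Of 28 measured markers of other cell types, 20 were detected nowhere, among them Sftpc, Epcam and Cd3e, and 2 on part of the arrays. The other 6 (21.4%), detected on every array, were Ager, Cd3d, Pax5, Dcn, Vwf and Pecam1, and their part in the values below was not tested.

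The 2 feedback genes differed in detection, so the promoter of Socs1, the one not well above background, is shown first. The RefSeq promoter table of build GRCr8 holds windows from 250 bases before to 50 bases after the transcript start for 8 of the 9 genes, all but Jak1. Each window was searched on both strands for TTCNNNGAA, the spacing most STAT dimers bind, for TTCNNNNGAA, the wider spacing bound by STAT6, and for GAAANNGAAA or its reverse complement TTTCNNTTTC, a core of the interferon-stimulated response element that complexes with STAT2 and IRF9 bind. Socs1 alone among the 8 had a match. The 250 bases before its start lie at chr10:5389324-5389573 on the plus strand, and the capitals mark the matches.

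Socs1: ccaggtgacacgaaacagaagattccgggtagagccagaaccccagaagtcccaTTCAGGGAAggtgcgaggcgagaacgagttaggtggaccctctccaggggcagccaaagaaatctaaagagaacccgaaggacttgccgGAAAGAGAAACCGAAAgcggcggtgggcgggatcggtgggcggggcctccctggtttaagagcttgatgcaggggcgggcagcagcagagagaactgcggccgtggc

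The first run of capitals, TTCAGGGAA, matches TTCNNNGAA and lies 188 to 196 bases before the start. The second run holds overlapping matches to GAAANNGAAA, GAAAGAGAAA at 98 to 107 bases and GAAACCGAAA at 92 to 101 bases before the start. TTCNNNGAA occurred in 8.87% of 33469 promoter windows, TTCNNNNGAA in 7.28% and the interferon-type core on either strand in 3.92%. A match is only a likeness of letters, and no match says only that these letters are not in this window. The window of Socs3 lies wholly inside the RefSeq span of that gene, so bases before its outermost start were not searched.

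Each level is a log2 intensity from which the 75th percentile of that array's probes was taken away, so that 0 is that percentile, with the mean ± SD over 4 arrays. They hold for each probe alone, since probes bind with different strength, and the level of 1 gene cannot be set against that of another. Fewer cells and less RNA per cell cannot be told apart in such bulk samples.

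**Figure D1:**
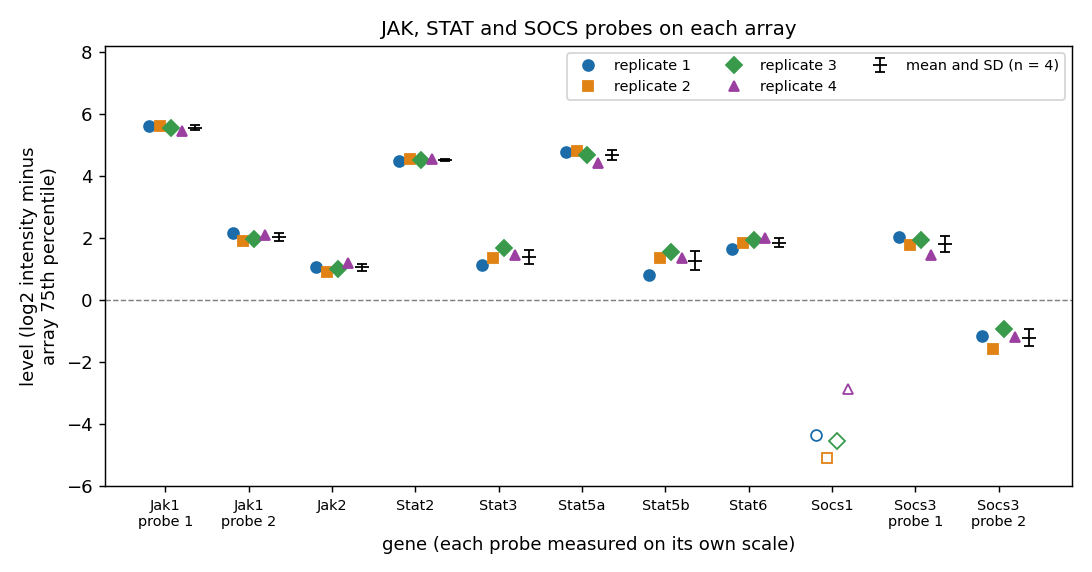
Level of each of the 11 probes (log2 processed intensity minus the array's 75th percentile) on the 4 arrays, with the mean and SD beside the points of probes detected on every array. Open points are Socs1, which was detected on no array, and each other probe lies within 0.73 log2 units from its lowest to its highest array.

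Of the 9 genes, 8 were detected on all 4 arrays and Socs1 on none. Among all named genes, 47.9% were detected on all 4. The same 8 genes were detected when the weaker mark of a positive and significant signal was used, when the mark was required on every spot, and when any 1 array was left out.

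The spread of both kinase genes moved with the scaling. JAK1 serves the interferon, gp130 and common gamma chain receptors, and its brighter probe read 5.62, 5.62, 5.56 and 5.47 on replicates 1 to 4, a level of 5.57 ± 0.073 (SD, n = 4). The 4 arrays differed by 1.12-fold from lowest to highest. The brighter probe was made to a predicted transcript record. A second Jak1 probe, made to the curated record of the gene, read 2.18, 1.92, 1.98 and 2.10, or 2.04 ± 0.12 (SD, n = 4). The SD of the brighter probe was 0.28 with another background correction (normexp on the median spot signal) and 0.034 without replicate 4. Normexp added an offset of 50 intensity units, where the 75th percentile of processed intensities over probes was 63.7 to 109. The part of that offset in the SDs under normexp was not tested. The brighter probe was lowest on replicate 4 and the other on replicate 2, so the probes did not share an order of arrays.

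JAK2 transmits signals from the receptors for granulocyte-macrophage colony stimulating factor, erythropoietin and interferon gamma. Its probe read 1.09, 0.91, 1.02 and 1.21 on replicates 1 to 4, or 1.06 ± 0.13 (SD, n = 4). Replicate 2 was lowest and replicate 4 highest under each of 5 ways of scaling the arrays, with a ratio of 1.23 between them in the scaling used throughout. Its SD was 0.059 with normexp and 0.18 with the percentile over detected probes as the scale. All these scalings reread the same spots. The SD of 0.13 was below the error of 0.147 log2 units that the scanner software gave for this probe.

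Among the STAT factors, Stat2 had the lowest SD and Stat5b the highest in the scaling used throughout. With normexp Stat6 was lowest and Stat5a highest, and without replicate 1 Stat5a was highest. STAT2 acts with IRF9 to carry type I interferon signals. Its probe read 4.49, 4.56, 4.53 and 4.54 on replicates 1 to 4, or 4.53 ± 0.033 (SD, n = 4), a 1.06-fold difference between extremes. That SD was at the 0.85th percentile of all genes tested. As a ratio of its variance to that usual at its level, Stat2 was at the 1.78th percentile. The SDs of Stat2, Jak1 and Jak2 were below the error of 0.144 to 0.147 log2 units that the scanner software gave for these probes. The SD of Stat2 was 0.15 with normexp, 0.078 with the array median, 0.050 with quantile normalization, 0.041 with the percentile over detected probes and 0.017 without replicate 1.

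STAT3 transmits interleukin 6 and interleukin 10 signals, the latter a brake on macrophage cytokine output. Its probe read 1.13, 1.35, 1.68 and 1.45 on replicates 1 to 4, or 1.40 ± 0.23 (SD, n = 4). It was highest on replicate 3 in all 5 scalings. It was lowest on replicate 1 in 4 of them and on replicate 4 with normexp, where its SD was 0.13.

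STAT5A and STAT5B are close relatives that act downstream of granulocyte-macrophage colony stimulating factor. Their genes and Stat3 stand side by side in the rat genome, in the order Stat5b, Stat5a, Stat3, with 0 annotated genes between neighbours in the RefSeq table. Stat5a read 4.78, 4.81, 4.70 and 4.43 on replicates 1 to 4, or 4.68 ± 0.17 (SD, n = 4), and was lowest on replicate 4 in 5 of 5 scalings. Its SD was 0.059 without replicate 4 and 0.26 with normexp. Stat5b read 0.82, 1.37, 1.55 and 1.37, or 1.28 ± 0.32 (SD, n = 4). Replicate 1 stood below the other arrays for Stat5b and replicate 4 did so for Stat5a, so the 2 neighbours did not share a lowest array. Whether they vary together was not tested and cannot be told from 4 arrays. Stat5b was lowest on replicate 1 and highest on replicate 3 in all 5 scalings, with a 1.66-fold difference between those arrays, and without replicate 1 its SD was 0.11, below the 0.19 of Stat5a and the 0.17 of Stat3.

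STAT6 carries interleukin 4 and interleukin 13 signals, which drive the alternative activation of macrophages. Its probe read 1.65, 1.86, 1.93 and 2.00 on replicates 1 to 4, or 1.86 ± 0.15 (SD, n = 4). It was lowest on replicate 1 in 5 of 5 scalings, and its highest array was replicate 4 in 3 of them. Its SD was 0.072 without replicate 1 and 0.053 with normexp.

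The feedback genes stood on either side of detection. SOCS3 binds the gp130 receptor and JAK kinases and is a classical target of STAT3. Its main probe, made to a predicted transcript record, was spotted 10 times per array. That probe read 2.04, 1.78, 1.93 and 1.47 on replicates 1 to 4, or 1.81 ± 0.25 (SD, n = 4). Repeated spots differed less than arrays, with SDs between spots of 0.055 to 0.099. On replicate 4 the 10 spots lay between 1.35 and 1.63, below every spot of the other arrays, whose lowest was 1.71. On replicate 1 they lay between 1.86 and 2.16 and overlapped those of replicates 2 and 3. Spots of 1 array share 1 RNA sample and are not replicates of the exposure.

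A second Socs3 probe, made to the curated transcript record, was also detected on every array but only 2.21 to 3.10 times the lowest such signal of its array. It read -1.15, -1.57, -0.92 and -1.18 on replicates 1 to 4, or -1.21 ± 0.27 (SD, n = 4). It was lowest on replicate 2 and not on replicate 4, so the low value of the main probe on replicate 4 was not shared by the other probe of the gene. Without replicate 4 the SD of the main probe was 0.13.

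SOCS1 inhibits the JAK kinases directly and restrains interferon signals. Its single probe had processed intensities of 5.41, 2.75, 2.77 and 8.74 on replicates 1 to 4, below the lowest signal the software marked as detected on each array, which was 22.3, 11.3, 10.8 and 12.1. Its level was therefore at most -2.29, -3.05, -2.56 and -2.40 on these arrays. On replicate 4 the intensity was above the 99th percentile of the negative controls, 6.25, and the spot had the weaker mark of a positive and significant signal there and on replicate 3.

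The deviations of each probe from its own mean set the genes side by side on a common scale. Of the 8 detected genes, 4 were lowest on replicate 1 (Stat2, Stat3, Stat5b and Stat6), 1 on replicate 2 (Jak2) and 3 on replicate 4 (Jak1, Stat5a and Socs3). Of all 13438 genes and unnamed transcripts detected on every array, 38.8% were lowest on replicate 1, 13.3% on replicate 2 and 33.5% on replicate 4, so the split of the 8 lay near that of the whole array. Under the 4 other scalings the lowest array of Stat2 changed in each, and that of Jak1 and of Stat3 in 1.

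**Figure D2:**
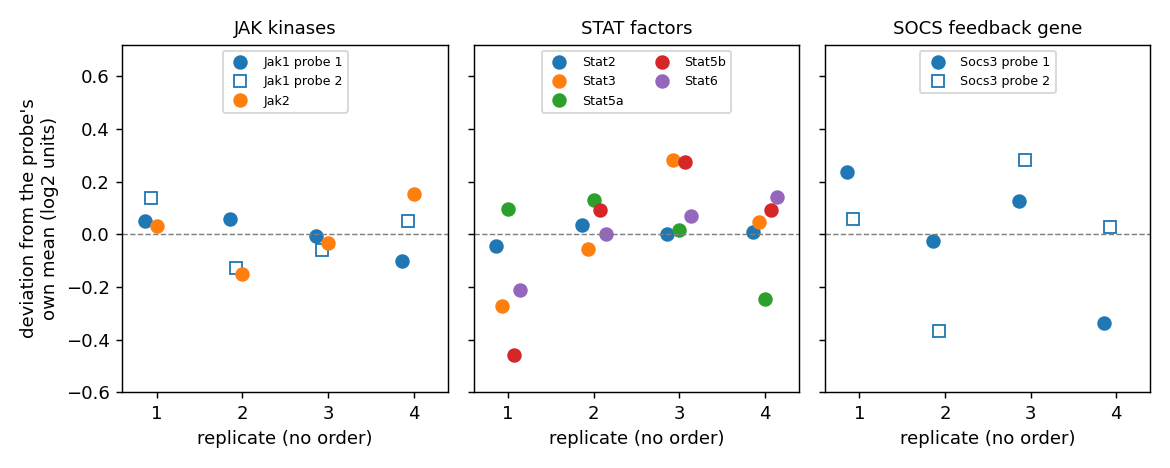
Deviation of each detected probe from its own mean over 4 arrays (log2 units) by replicate, for kinases, STAT factors and Socs3. On replicate 1 Stat5b lies at -0.46, Stat3 at -0.27 and Stat6 at -0.21, while Stat5a lies at 0.098 there and at -0.24 on replicate 4; the lowest array of Stat3 moves to replicate 4 with another background correction.

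On replicate 1 the Stat5b spot was 8.63 times the lowest signal the software marked as detected, against 13.6 to 21.4 times on the other arrays. Its unscaled intensity was 192 units on replicate 1 and 242, 187 and 165 on replicates 2 to 4. The ratio to the lowest detected signal was 10.7 against 14.4 to 21.1 for Stat3, and 15.4 against 21.1 to 30.1 for Stat6. The part of the higher background of replicate 1 in these low values was not tested. With normexp background correction Stat5b and Stat6 were lowest on replicate 1 and Stat3 on replicate 4.

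Likeness to Stat5b, the gene with the largest SD of the 8, was measured as the root mean square difference between the 4 deviations. Across 7945 other named genes detected on every array, the 3 nearest were Gca at 0.022, Zfp444 at 0.041 and Cds2 at 0.041. Gca encodes the calcium-binding protein grancalcin and Cds2 an enzyme of phospholipid synthesis. The Gca probe read 6.27, 6.87, 7.01 and 6.86 on replicates 1 to 4 and was, like Stat5b, low on replicate 1 alone. Stat3 was in place 188 of that order, Stat6 in place 808 and Stat5a in place 6387. With 4 arrays such likeness is a description only.

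Whether any gene varied more between replicates than genes of like brightness was tested with limma, which set each gene's variance over the arrays against the variance usual at its level (one-sided F test, Benjamini-Hochberg adjustment). Of the 8 genes tested, 0 passed an adjusted p of 0.05, against 0.469% (70) of the 14916 genes and unnamed transcripts in the test. At 0.05 before adjustment 0 of the 8 passed too, against 5.06% (755) of all, and 1, Stat5b, passed under 4 of 13 alternatives (no filter on dim probes, a robust prior, without replicate 2 and without replicate 4). Stat5b came nearest, with a variance 4.11 times the usual one (adjusted p = 0.987, limma). Socs3 had a ratio of 2.82, Stat3 of 2.20 and Stat5a of 1.66, each also with an adjusted p of 0.987 (limma). Stat6 was at 1.05, Jak2 at 0.623, Jak1 at 0.313 and Stat2 at 0.0613 times the usual variance. The median SD of the 8 was 0.16 log2 units, as was that of all genes tested. The count of 70 was 27 without replicate 2, 161 without replicate 3 and 43 without replicate 4, whereas the count among the 8 genes was 0 without each array in turn. A p that misses the threshold does not show that a gene was steady, and with 4 arrays only large excesses can pass.

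**Figure D3:**
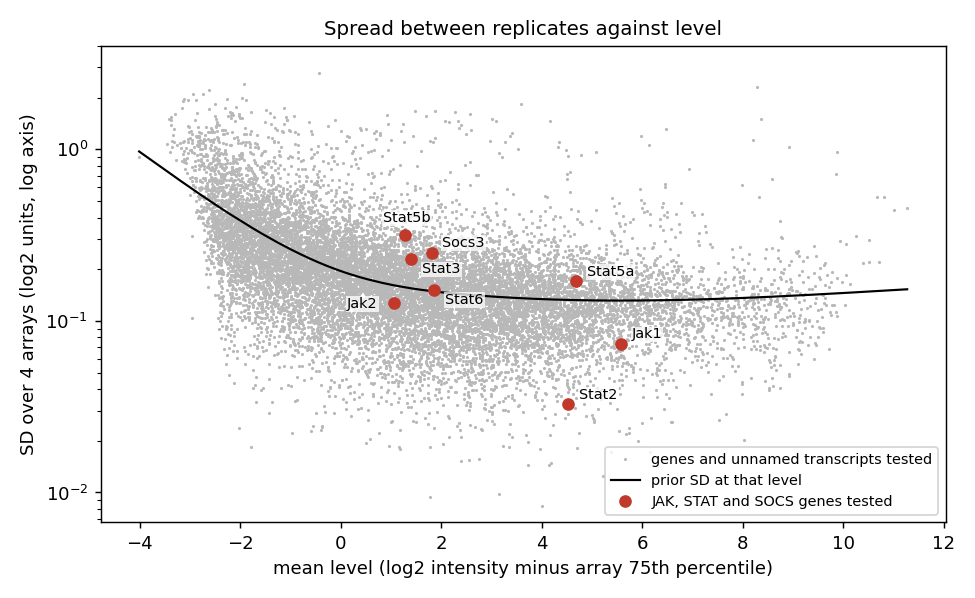
SD over 4 arrays (log2 units, log axis) against mean level for all 14916 genes and unnamed transcripts tested, with the fitted prior SD as a line and the 8 tested JAK, STAT and SOCS genes in red. Stat5b at 0.32 and Socs3 at 0.25 lie above the line within the cloud, and Stat2 at 0.033 lies far below it in this scaling.

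**Figure D4:**
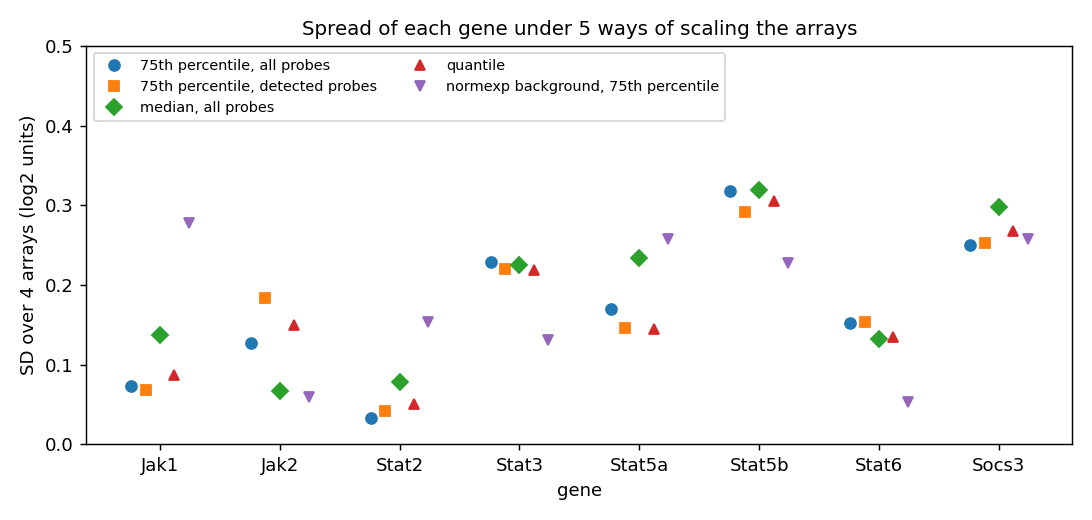
SD over 4 arrays (log2 units) of each of the 8 tested genes under 5 ways of scaling or background correction. Stat5b stays between 0.23 and 0.32 and Socs3 between 0.25 and 0.30, while Jak1 reaches 0.28 with normexp background correction against 0.073 in the scaling used throughout.

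The spread of Stat5b and Socs3 kept its size over these 5 scalings, from 0.23 to 0.32 and from 0.25 to 0.30. That of the kinases moved more, from 0.068 to 0.28 for Jak1 and from 0.059 to 0.18 for Jak2. Stat5b had the largest SD of the 8 under 4 of the 5 scalings and Jak1 under normexp background correction. With normexp the SD rose for Jak1, Stat2 and Stat5a, whose probes were the brightest. It fell for Jak2, Stat3, Stat5b and Stat6, and that of Socs3 changed little.

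Other genes of the pathway were read from 6 lists of 87 genes, of which 81 had a probe. Of these 81, 56 were detected on every array, 22 on none and 3 on part of the arrays, so that 69.1% were detected on every array against 47.9% of all named genes. In the variance test 0 of 57 tested passed the adjusted threshold (limma), against the 0.469% of all genes, and 4 passed 0.05 before adjustment, a share of 7.02% near the 5.06% of all genes.

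**Figure D5:**
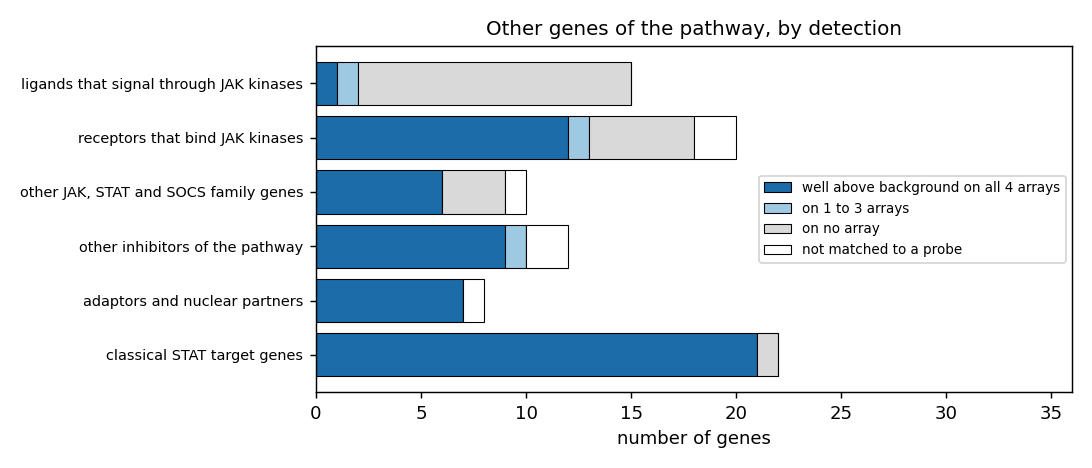
Number of genes in each of 6 pathway lists by detection. Of 15 ligands, 1 was detected on all arrays, against 12 of 18 measured receptors and 21 of 22 measured STAT target genes. Of all named genes, 47.9% were detected on all arrays.

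Ligands were mostly not detected. Of 15 measured, 1 (6.67%, against 47.9% of all named genes) was detected on every array, Csf3 at -0.89 ± 0.44 (SD, n = 4). Il10 was detected on 1 array. Its brightest probe read -2.10 on replicate 1, where the lowest signal marked as detected lay at -2.29, and -4.09, -4.81 and -4.70 on replicates 2 to 4. The other 13, among them the interferon genes Ifnb1 and Ifng and the Stat3 activator Il6, were detected on none.

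Of 18 measured receptors, 12 (66.7%, against 47.9% of all named genes) were detected on all arrays, including the type I interferon receptor gene Ifnar1 at 1.57 ± 0.32 (SD, n = 4), the interferon gamma receptor genes Ifngr1 and Ifngr2, the Stat6-coupled Il4r and the shared interleukin 6 family receptor Il6st. Il10ra was detected on 1 array and 5 on none, and Ifnar2 and Il15ra were not matched to a probe.

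The rest of the JAK, STAT and SOCS families divided as well. Of 9 measured, 6 were detected on all arrays, with the kinase gene Tyk2 at 1.79 ± 0.13 (SD, n = 4). Jak3, Stat4 and Socs2 were detected on none, and Socs7 was not matched.

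Of 10 measured inhibitors outside the SOCS family, 9 (90%, against 47.9% of all named genes) were detected on all arrays, and Pias1 on 3 of them. Pias2, a member of the same group of STAT inhibitors, read 2.83 ± 0.23 (SD, n = 4), and Sh2b3 and Cbl were not matched. All 7 measured adaptors and nuclear partners were detected on every array, against 47.9% of all named genes. Irf9 was at 2.91 ± 0.070 and the coactivator Crebbp at 1.61 ± 0.19 (SD, n = 4), and Ep300 was not matched.

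Of 22 measured STAT target genes, 21 (95.5%, against 47.9% of all named genes) were detected on all arrays and Pim3 on none. Irf1, an interferon gamma target, read 3.56 ± 0.12 and Irf7, a type I interferon target, 1.99 ± 0.098 (SD, n = 4). These are levels in exposed cells and do not show that the STAT factors were active.

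The 4 pathway genes past 0.05 before adjustment were Cish, Bcl2l1, Isg15 and Ifnar1, all named after their values were seen, and their number is near the background. Cish, a SOCS family gene induced by STAT5, read 0.54, -0.30, -0.30 and -0.65 on replicates 1 to 4 (adjusted p = 0.732, limma). The survival gene Bcl2l1, also a STAT5 target, read 0.98, -1.28, -1.58 and -1.51 (adjusted p = 0.089, limma), and its 3 other probes were detected on no array. Bcl2l1 passed the threshold under 6 of 13 alternative settings, with an adjusted p in limma from 2.3e-05 with normexp background correction to 0.993 without replicate 1, so the count of 0 among the pathway genes was 1 in those 6. Cish and Bcl2l1 were both highest on replicate 1, as were 22.0% of all genes and unnamed transcripts detected on every array. The ubiquitin-like gene Isg15 read 2.86, 2.66, 3.10 and 3.45 and was highest on replicate 4, and Ifnar1 read 1.14, 1.77, 1.51 and 1.87 and was lowest on replicate 1.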

How the data were processed

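Total RNA of 4 exposed NR8383 samples was labelled with Cy3 and hybridised to 1-colour arrays, per the labels' protocols. The deposited intensity of each spot, background-subtracted and detrended within its array but not normalized between arrays, came from Agilent Feature Extraction 11.0.1.1, per the file headers and, for the version, also per the submitters' processing notes. Control spots and non-uniform spots (0 to 7 per array) were dropped, the log2 intensities of a probe's remaining spots were averaged, and each array was lowered by its 75th percentile over probes. A probe was well above background if at least 50% of its spots had that mark, and a gene's brightest probe stood for it. Accessions were matched to RefSeq genes of GRCr8, which named 46.3% of probes, and since the headers name rn4, its coordinates were used only for gene neighbours and for the place of RefSeq promoter windows. The variance test took the 14916 genes and unnamed transcripts with a probe well above background on at least 2 arrays and used limma 3.58.1 in R 4.3.3, with a trended prior of 6.51 degrees of freedom, adjusted over all of them. The test was also run on data simulated from its own fitted prior, which cannot show whether that prior holds for these arrays.

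The genes and lists were chosen with earlier results of these data known. The rule for named genes took all 9 genes, the first 2 of each list, those behind a count of 3 or fewer and the 3 genes most like the most variable one. Alternatives covered background correction, scaling, the filter on dim probes, the prior, the choice of probe, the detection mark and leaving out each array. Normexp was planned on the mean spot signal, which was not found in the files, and its form on the median spot signal was added after seeing the data. Every SD rests on 4 arrays, which limits its precision.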

Additional observations from a re-analysis of the deposited data

Results flagged for a closer look

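Of 17 probes and genes examined for an array apart from the others, 1 was found, the kinase gene Tyk2. Its brighter probe read 1.71, 1.99, 1.74 and 1.71 on replicates 1 to 4, and the gap of replicate 2 to the nearest array was 0.892 of the whole range, above the limit of 0.829 for 4 samples. Chance gives such a flag in about 1 of 20 groups. The second Tyk2 probe read 0.47, 0.77, 0.59 and 0.84 and was highest on replicate 4. The variance test gave Tyk2 an adjusted p of 0.987 (limma).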

How the results depend on the processing

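Detection of 8 of the 9 genes held under all 6 alternatives, and 0 of the 8 passed the variance test of limma under any of 13, with a lowest adjusted p of 0.52 (Stat5b when dim probes were tested as well). The count over all genes, 70, did change. It was 236 with normexp background correction, whose form on the median spot signal was added after seeing the data, 174 with the array median, 1 with quantile normalization and 0 with the percentile over detected probes. A robust prior gave 207, a prior without trend 0, and testing dim probes as well 357. Leaving out each array in turn gave 27 to 161. The pathway lists were read under the same 13 alternatives after seeing the data, and Bcl2l1 passed under 6 of them. The cause was not tested. The array median moved the median level of all tested genes from 1.25 to 5.22 by construction. At most 40.9% of the probes of an array were detected, so that median lies among undetected probes. Of 72 recomputed SDs of the 8 genes, 16 moved by 1.5 times or more, 6 upwards and 10 downwards, among them at least 1 for each of the 8 genes. No paired analysis was possible because the arrays form 1 group. Signals near background limit the second Socs3 probe and Socs1.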
